A study of Mus musculus with 127 samples.

Results

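Cell18 is 1 of 10 nuclei of mouse embryonic stem cells that were cut into serial slices and sequenced slice by slice. It is described here through its 2 deposited files of positions, numbered 0 and 1, restricted to the 19 autosomes. The files list 88978 autosomal windows of 10 kb, 25439 in file 0 and 63539 in file 1, out of 1132635 autosomal listings over all 10 nuclei. Its slices, called nuclear profiles, are 16 of the 122 profiles of the series, which also has 1 negative control and 4 positive controls. Cell18 was chosen by the density of its windows on chromosome 18 and by the length of its stretches of windows listed in 1 file only. Those 2 measures are given as descriptions, without a test.

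The series applied a sequential form of genome architecture mapping to F123 cells, an embryonic stem cell line derived from a CAST x 129 hybrid mouse. Cells of every nucleus were grown with LIF on mouse embryonic fibroblast feeders, were freed of feeders by replating and received no treatment, and whole-genome amplification preceded the sequencing of each profile. The nuclei fall into batch B16F with 4 nuclei, Cell18 among them, and batch B18F with 6. The slices of Cell18 are no replicates of each other, and nuclei are compared with 1 value each. The labelled profile numbers of Cell18 lie within the range of those of Cell17.

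In interphase each chromosome occupies a territory of its own rather than spreading through the whole nucleus. Genome architecture mapping reads the DNA of thin slices of nuclei, in which loci that lie near each other tend to occur together. In a diploid hybrid line each autosome is present as a maternal and a paternal copy, which occupy separate territories and can lie at different heights of the nucleus.

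Each listed window carries 1 position along the cutting axis, in a unit that the files do not name and that is called an axis unit here. The positions of Cell18 spanned 3.2 axis units, and 76.1% of its listings lay on a regular grid with a step of 0.2 axis units. The grid had 17 positions although the nucleus has 16 profiles. The remaining 23.9% lay between grid positions. Cell18 listed 78391 distinct autosomal windows, which is 31.9% of the autosomal windows, against 19.05% in Cell39 and 51.9% in Cell25, the lowest and highest of the 10 nuclei. Of these, 10587 windows were in both files, 14852 in file 0 only and 52952 in file 1 only. No file gives a read count, and the depth behind a listed window is therefore unknown.

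The file that listed a window followed the window's start coordinate, whichever autosome it was on. This was seen in Cell18 first and then tested in the other 9 nuclei. Windows listed in 1 file only are called single-file windows. Pairs of them on different autosomes of Cell18 with the same start coordinate were in the same file in 94.5% of 146897 pairs, against 65.8% from the sizes of the files. The share was 94.4% when the coordinates differed by 10 kb, 90.9% at 100 kb, 68.95% at 1 Mb, 65.1% at 5 Mb and 64.8% at 10 Mb. Among 11754 coordinates at which at least 3 autosomes had a single-file window, 10119 (86.1%) had all of them in 1 file. At most 1 window went the other way at 98.9% of these coordinates.

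**Figure D1:**
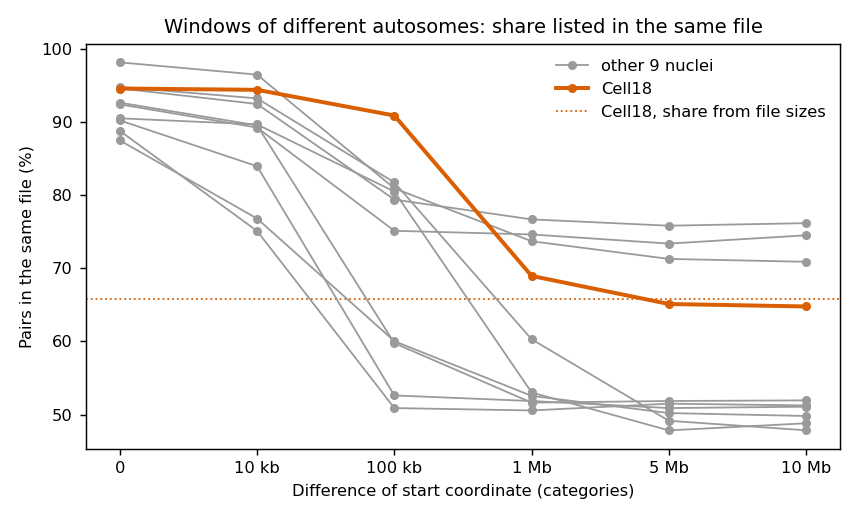
Share of pairs of single-file windows on different autosomes that were listed in the same file (y axis, percent) by the difference of their start coordinates (x axis, 6 categories), with 1 line per nucleus. Cell18 is at 94.5% for identical coordinates, at 90.9% for 100 kb and at 65.1% for 5 Mb, next to the dotted line that marks its share from the file sizes (65.8%).

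Every other nucleus had the same property. The share at identical coordinates ran from 87.5% in Cell39 to 98.1% in Cell38, and it exceeded the share from the file sizes by 33.7 ± 10.1 percentage points (SD, n = 9, range 18.1 to 44.6, above 0 in 9 of 9 nuclei, exact sign-flip permutation test p = 0.00391, the smallest this test can give). The excess in Cell18 was 28.8 points, inside that range. From identical coordinates to 100 kb its share fell by 3.69 points, against falls of 10.0 to 37.9 points in the other 9 nuclei. Cell18 kept 87.2% of its excess at 100 kb, against 0.627% to 75.2% in the others. Its excess there was 25.1 points, below the 31.6 points of Cell26 and the 30.3 of Cell17. At 1 Mb the excess of Cell18 over the file sizes was 3.17 points, below the 10.2 points of Cell26. The labels and headers do not say what the file numbers stand for, and the source of this shared coordinate pattern was not tested. All results below that rest on the file of a window carry it, since blocks on different autosomes of Cell18 are not independent of each other.

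The longest stretch of start coordinates assigned to 1 file in Cell18 ran from 101090001 to 112640000 (mm10), or 11.55 Mb. On the 14 autosomes long enough to reach its end, 98.9% of 4820 single-file windows were in file 1. The lowest autosome in it was chromosome 2 with 378 of 393 windows, or 96.2%, and on chromosomes 3 and 14 all 352 and 393 windows were in file 1. The next stretch ran from 84040001 to 94840000 (10.8 Mb), where 98.6% of 5725 windows on 17 autosomes were in file 1 and the lowest autosome, chromosome 9, had 94.1%. File 0 held no stretch of that size. Its longest ran from 57420001 to 60110000, or 2.69 Mb, and its coordinate stretches covered 40.97 Mb in all, against 149.37 Mb for those of file 1.

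**Figure D2:**
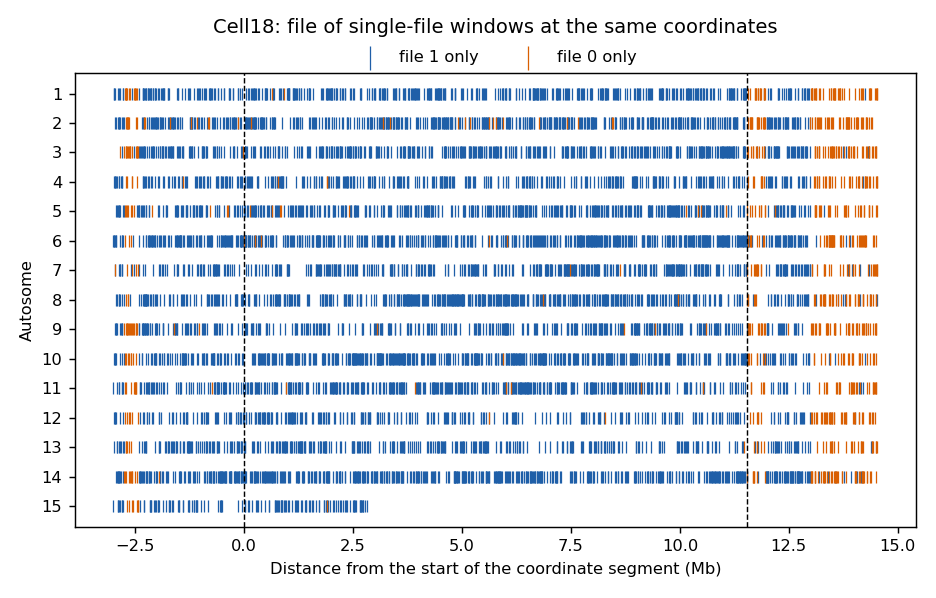
Single-file windows of Cell18 on 15 autosomes (rows) in the longest coordinate stretch and its flanks, plotted by distance from the start of the stretch (x axis, Mb); blue ticks are windows in file 1 only and orange ticks windows in file 0 only. Between the dashed lines, 11.55 Mb apart, nearly every tick is blue on every autosome, and orange stretches begin at the same distances in the rows that reach them.

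A run was defined as consecutive single-file windows of 1 file along an autosome, with windows in both files skipped and unlisted gaps bridged. Cell18 had 4447 such runs, the fewest of the 10 nuclei. Their N50, the span such that runs of at least that span hold 50% of the single-file windows, was 1.95 Mb. In the other 9 nuclei it was 0.88 Mb in Cell38, 0.84 in Cell26, 0.79 in Cell20, 0.58 in Cell17, 0.46 in Cell19, 0.24 in Cell25, 0.23 in Cell39, 0.14 in Cell28 and 0.09 in Cell27. No other nucleus came within 1 Mb of it. Cell18 had 58 runs over 5 Mb, against 0 to 8 in the others. In runs over 1 Mb lay 66.5% of its single-file windows, against 44.9% in Cell38, the next highest. The N50 is not adjusted for the share of single-file windows in file 1, 78.1% in Cell18 and 47.6% to 86.3% in the others. Pairs of single-file windows on the same autosome ranked Cell18 lower. At 100 kb apart, their same-file share exceeded that from the file sizes by 26.3 points in Cell18, 32.2 in Cell17 and 35.6 in Cell26. At 1 Mb apart it did so by 7.11 points in Cell18 and 14.3 in Cell26.

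**Figure D3:**
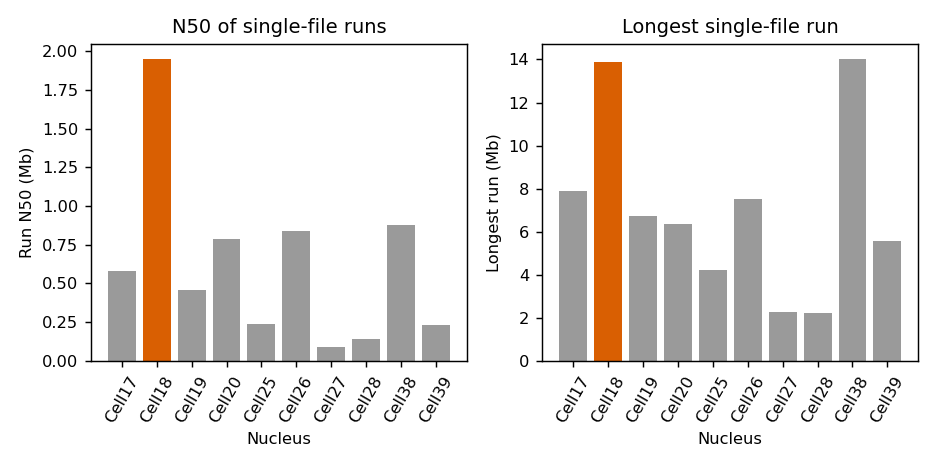
N50 (left, Mb) and longest span (right, Mb) of single-file runs in each of the 10 nuclei, with Cell18 in orange and 1 bar per nucleus. Cell18 has the highest N50 (1.95 Mb, next 0.88 Mb), while its longest run of 13.87 Mb is second to the 14.02 Mb of Cell38.

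Short runs were common in Cell18 beside its 593 runs over 1 Mb. The median run of Cell18 was 0.08 Mb, and 1755 of its 4447 runs were a single window. With runs ended at each window listed in both files, its N50 fell to 0.40 Mb and was equal to the highest of the other nuclei. With runs of 1 or 2 windows removed before joining, it was 3.85 Mb and ranked the second, below a nucleus at 4.40 Mb.

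The 10 longest runs of Cell18 were all in file 1, which held 78.1% of its single-file windows. They lay on 7 autosomes and spanned 9.62 to 13.87 Mb. The longest was chr13:98670001-112540000 with 319 windows, and chr14:99150001-112640000 followed with 461 windows over 13.49 Mb. Then came chr4:144720001-156340000 (11.62 Mb), chr3:101100001-112590000 (11.49 Mb), chr1:84030001-94840000 (10.81 Mb) and chr8:84060001-94820000 (10.76 Mb). The last 4 were chr1:102080001-112620000 (10.54 Mb), chr7:98690001-108560000 (9.87 Mb), chr4:84040001-93900000 (9.86 Mb) and chr4:103020001-112640000 (9.62 Mb). Of the 10 runs, 5 ended between 112540000 and 112640000 on chromosomes 13, 14, 3, 1 and 4. Another 2, on chromosomes 1 and 8, began and ended within 30 kb of each other. At the coordinates of these 10 runs, 97.40% to 98.99% of the single-file windows of the other autosomes were in file 1 too.

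Windows of the 10 runs were spread along the axis. Their mean positions lay between 1.25 and 1.65 axis units from the low end, with SDs of 0.758 to 0.882 against 0.794 for all autosomal listings. Each run reached 15 to 17 of the 17 grid positions, and the commonest position held 8.62% to 20.7% of a run's listings. A run is therefore a block in its file and not a block at 1 height.

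The 10 runs held 1108 protein-coding genes, from 25 in the runs of chromosome 14 and the distal run of chromosome 1 to 303 on chromosome 7. The chromosome 7 run contained the beta-globin genes (chr7:103812524-103853207), which encode the beta chains of haemoglobin, and the chr4:84040001-93900000 run contained the Ifna interferon cluster. To show windows inside single genes, the longest gene of each run was taken, a choice made after the runs were seen. Pde4d on chromosome 13, a cyclic AMP phosphodiesterase gene of 1302 kb, had 29 of its 131 windows in file 1 only, 4 in both and 0 in file 0 only, at positions from 0.2 to 3.2. Agbl4 on chromosome 4 had 32 windows in file 1 only, 1 in both and 0 in file 0 only. Fto on chromosome 8, an RNA demethylase gene, had 14 in file 1 only and 2 in both, and Klf12 on chromosome 14, a Kruppel-like transcription factor gene, had 9 and 5. That none of the 10 had a window in file 0 only is set by the definition of a run.

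Autosomes of Cell18 differed in how often a window went against its coordinate. Of 64479 single-file windows with other autosomes to compare, 96.8% were in the file that most of the others used at that coordinate. The share going against it was lowest on chromosome 4 (1.52%) and chromosome 1 (1.85%), and highest on chromosome 11 (5.90%), chromosome 2 (5.01%) and chromosome 9 (4.79%). Chromosome 4, with 133 runs, had a longest run of 11.62 Mb, while chromosome 2, with 577 runs, reached 4.64 Mb and chromosome 11, with 377, reached 3.37 Mb. Across the 19 autosomes, which share the same pair of files, the share going against the coordinate followed the number of runs per window (Spearman's rho 0.97). It went opposite to the longest run (rho -0.70). Both relations are largely set by the definition of a run, since a window of the other file ends a run. Chromosome 18 ranked the sixth from the top, with 3.61% going against, 223 runs and an N50 of 1.89 Mb.

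File 0 gave short blocks. Its longest run was chr7:115470001-119250000 (3.78 Mb, 76 windows), followed by 3.55 Mb on chromosome 9 and chr19:57420001-60720000 (3.30 Mb). At those coordinates, 90.7% to 92.0% of the single-file windows of the other autosomes were in file 0. Protein-coding genes were slightly sparser in windows of file 0. There were 7.18 gene midpoints per Mb in windows of file 0 only, 8.35 in file 1 only, 8.94 in windows of both files and 8.72 in unlisted windows.

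Most windows of gene clusters, like windows in general, were in the file of their coordinates. Over 15 clusters, 315 of 317 single-file windows with other autosomes to compare (99.4%) were in the file that most of those used, against 96.8% of all such windows. Of the 15, 14 had a single-file window, and in 10 of them all were in file 1, which held 78.1% of all single-file windows. The Klra natural killer receptor genes (chromosome 6) had 54 windows in file 1 only and 14 in both, the Cyp2c cytochrome genes (chromosome 19) 43 and 1, and Serpina1 and Serpina3 (chromosome 12) 21 and 1. Hoxa, homeobox genes that pattern the body axis, had 6 of 6 single-file windows in file 1, and Hoxb had 4 of 4. Hoxc had 5 of 6, where 96.6% of the other autosomes' windows were in file 1, and Hoxd had 2 of 3, where 100% were. Another 2 were divided between the files. The major urinary protein genes (chr4:59956804-62150841) had 22 windows in file 0 and 39 in file 1, or 63.9% in file 1 against 68.2% of the other autosomes' windows there. The prolactin family genes on chromosome 13 had 19 in file 0 and 12 in file 1, or 38.7% against 52.4%. Window by window, 60 of 60 and 30 of 30 of these were in the file of the other autosomes at the same coordinate. The alpha-globin genes had no listed window.

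Pluripotency genes, which maintain the embryonic stem cell state, were thinly listed, and most of them are only a few windows long. Of 14 genes, 5 had a listed window. The windows of the 14 genes were listed in 15.2% of cases, against 31.9% of all autosomal windows, and the reason was not tested. Of their single-file windows, 7 of 7 were in the file of the other autosomes, where 96.8% of all such windows were. Pou5f1, the Oct4 gene on chromosome 17, had 1 window in file 0 at 1.6 axis units. Nanog on chromosome 6 had 1 in file 1, also at 1.6, and its neighbour Dppa3 had 2 in file 1. Of 16 lineage regulators, 9 were listed, with 17 of 17 single-file windows in the file of the others, and 11 imprinted genes of 15 had 30 of 31 there. These counts by file are near the share of all windows. Otx2 on chromosome 14, a head and forebrain homeobox gene, had 2 windows in file 0. Pax6 on chromosome 2, an eye and neural regulator, had 4 in file 1. Among the 15 imprinted genes, which are expressed from 1 parental copy, 3 had a window in file 0 only. Snrpn on chromosome 7, one of these, had 13 windows in file 0 only, 1 in file 1 only and 2 in both. At its coordinates, 6.54% of 214 single-file windows of the other autosomes were in file 1, so its split followed its coordinates.

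Autosomes of Cell18 had similar average heights. All autosomal listings had a mean position of 1.53 axis units from the low end (47.9% of the axis) with an SD of 0.794. The lowest means were those of chromosome 5 at 1.37 (42.7% of the axis), chromosome 10 at 1.39 (43.5%) and chromosome 15 at 1.43 (44.6%). The highest were chromosome 18 at 1.71 (53.4%), chromosome 17 at 1.68 (52.4%) and chromosome 6 at 1.63 (51.02%). Lowest and highest differed by 0.341 axis units, or 10.6% of the axis, which is less than the SD of the windows of any autosome (0.709 on chromosome 2 to 0.864 on chromosome 15). This span ranked the eighth among the 10 nuclei, whose spans ran from 5.79% in Cell20 to 26.7% in Cell39.

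**Figure D4:**
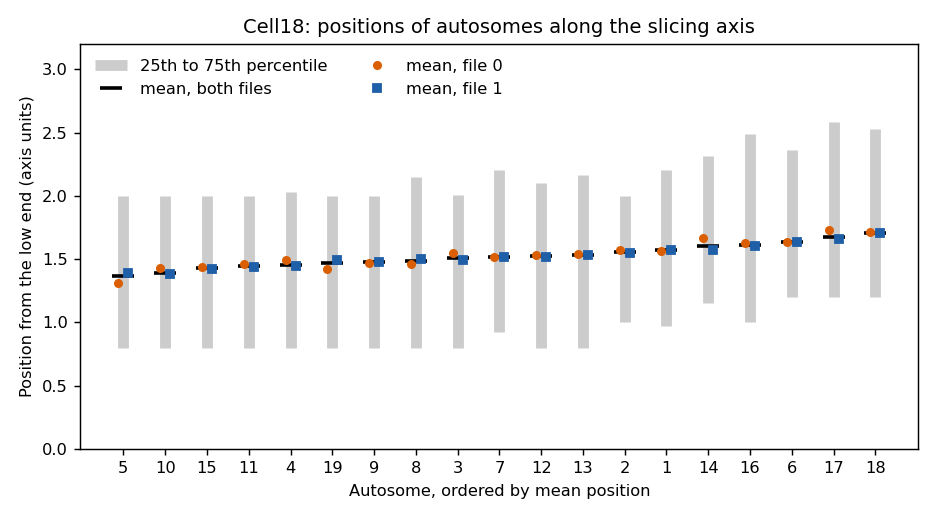
Position from the low end of the axis (y axis, axis units) of the 19 autosomes of Cell18, ordered by mean; black bars are means over both files, orange dots and blue squares the means of file 0 and file 1, and grey bars the 25th to 75th percentile of windows. Means rise from 1.37 on chromosome 5 to 1.71 on chromosome 18, while every grey bar is wider than that range.

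The order of the means was close to the same in both files. Across the 19 autosomes the file means had a Spearman's rho of 0.93, which falls to 0.64 when windows listed in both files are left out. Chromosome 18 had a mean of 1.71 in either file, and chromosome 5 had 1.31 in file 0 and 1.39 in file 1. Without windows in both files, chromosome 18 had 1.58 in file 0 and 1.67 in file 1. In file 0 it then lay below most of the other autosomes, among them chromosome 17 at 1.68 and chromosome 16 at 1.63. Chromosome 4, which ranked 5 from the low end in the pooled means, was also above it at 1.60. Chromosome 18 was the highest autosome under 6 of 7 other ways of averaging, and the second, after chromosome 17, with file 0 alone. Chromosome 5 was the lowest under 6 of 7, and chromosome 10 was lowest with file 1 alone. Autosome length did not order the means (rho -0.18) or the SDs (rho -0.11). More densely listed autosomes tended to have higher means (Pearson's r 0.69, Spearman's rho 0.49, 19 autosomes from the same slices, a description).

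Single axis positions were richer in particular autosomes. Relative density is the number of listings of an autosome at a position per window of its length, divided by the same over all autosomes. Chromosome 5 led at the low end of the axis, with 1.98 at position 1 and 1.64 at position 2. Chromosome 2 reached 2.82 and chromosome 11 reached 2.39 at position 9. Chromosome 6 reached 2.22 at position 7, chromosome 17 reached 2.12 at position 14 and chromosome 15 led at the high end with 1.50 at position 17. Chromosome 15 was the last of the 19 at positions 7, 10 and 14, with 0.25, 0.49 and 0.50. Among positions with at least 1000 listings, Cell18 had 7 pairs of an autosome and a position with a density over 2, and 3 of the 7 were chromosome 18. The other nuclei had 0 to 23 such pairs, and only 1 of these was chromosome 18, in Cell17.

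Chromosome 18 was the most densely listed autosome of Cell18. Its 5500 listings gave a relative coverage of 1.68, that is, listings per window of its length over the same for all autosomes, and exceeded the number at the autosomal density by 2224. Chromosome 14 (1.47) and chromosome 2 (1.31) followed, and chromosome 13 (0.694), chromosome 12 (0.743) and chromosome 15 (0.751) were the least covered. In the other 9 nuclei, chromosome 18 had 0.666 to 1.31, with a mean of 1.01 ± 0.198 (SD, n = 9). The excess was in both files, 1.87 in file 0 and 1.60 in file 1. In all, 48.6% of its windows were listed, and 24.8% of the listed windows were in both files, the highest such share of the 19 autosomes (the next was 19.1% on chromosome 2).

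Among grid listings, the excess of chromosome 18 lay at 3 heights of the axis. Its relative density was 2.90 at position 7 (1.2 axis units from the low end, 1077 listings), 3.01 at position 10 (1.8 axis units, 751 listings) and 2.75 at position 14 (2.6 axis units, 1097 listings). It led all autosomes at each. These positions held 72.9% of its grid listings, against 40.9% of those of all autosomes. The next highest positions were 1.34 at position 3, which held 122 listings of all autosomes, and 1.24 at position 8. At the 14 other positions together its density was 0.737, the lowest of the 19 autosomes, and 11 of the 14 were under 1. The 3 positions were picked because its density there was over 2. A low density and rank at the rest follow in part from that choice. The same 3 positions stood out in each file, with 3.16, 3.34 and 3.06 in file 0 and 2.79, 2.86 and 2.63 in file 1. Windows in both files count in each of these values. Leaving the 3 positions out brought the coverage of chromosome 18 from 1.68 to 1.14. Listings between grid positions, 1489 or 27.1% of those of chromosome 18, had a density of 1.90, above its 1.68 over all listings. Part of the excess therefore lay outside the 3 positions.

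**Figure D5:**
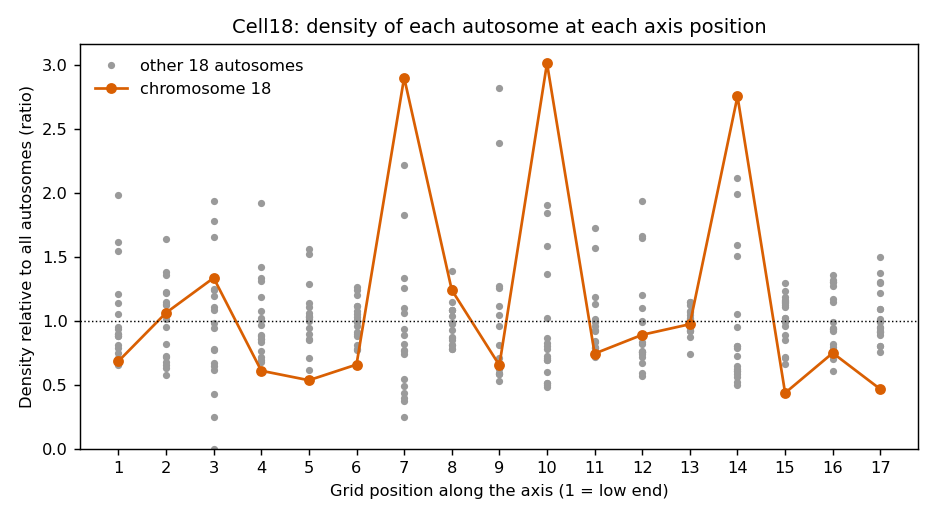
Relative density (y axis, ratio to all autosomes) of chromosome 18 (orange line) and the other 18 autosomes (grey dots) of Cell18 at each of the 17 grid positions (x axis, position 1 at the low end); the dotted line marks the density of all autosomes. Chromosome 18 stands at 2.75 to 3.01 at positions 7, 10 and 14 and between 0.436 and 1.34 elsewhere.

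Chromosomes 14, 17 and 6 were also denser at these 3 positions, with 1.89, 1.75 and 1.77, and had 1.03, 0.943 and 0.775 at the others. Their mean positions were 1.60, 1.68 and 1.63, among the 5 highest. The 3 positions are among the fullest of the nucleus, with 10083, 6769 and 10816 autosomal listings, and position 5 held 10949. Position 5 was different in its makeup, since chromosome 18 had a density of 0.536 there, the lowest of the 19.

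The excess was present in every 5 Mb segment of chromosome 18 from 5 to 90 Mb. In these 17 segments, relative coverage lay between 1.34 (75 to 80 Mb) and 2.23 (10 to 15 Mb) with a median of 1.70, and 17 of 17 segments were above 1. Segments of chromosome 18 in Cell20 were also all above 1, from 1.01 to 1.76 with a median of 1.23. In Cell26 they ran from 0.486 to 2.18 with a median of 1.62. The first 5 Mb had 85 listings and a relative coverage of 0.470, with 5.88% of the listings in file 0. This coverage counts every window of the segment, whether or not reads can be mapped to it, and is no measure of depletion there. Positions 7, 10 and 14 together held 67.03% to 78.04% of the grid listings of each segment. Position 7 was the commonest of them in 7 segments, position 14 in 9 and position 10 in 1. Mean positions of the segments lay between 1.52 (15 to 20 Mb) and 1.84 (50 to 55 Mb). Position 14 was the commonest of them in each segment from 45 to 75 Mb, such as 55 to 60 Mb with 92 listings there and 50 at position 7. In the segment from 35 to 40 Mb, which holds the clustered protocadherins, position 7 had 90 listings and position 14 had 55.

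Runs on chromosome 18 followed the coordinates of the other autosomes as well. Of its 223 runs, 20 were over 1 Mb and 83 were a single window. The longest were chr18:84060001-90120000 (6.06 Mb, 285 windows in file 1), chr18:60790001-66240000 (5.45 Mb), chr18:23380001-27560000 (4.18 Mb) and chr18:76170001-79500000 (3.33 Mb). At their coordinates, 98.1% to 99.2% of the single-file windows of other autosomes were in file 1. The longest run in file 0 was chr18:79510001-80610000 (1.10 Mb), where 92.8% of those of the other autosomes were in file 0. Mean positions in the 4 long file 1 runs were 1.77, 1.78, 1.78 and 1.54.

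All 31 genes looked up on chromosome 18 had a listed window, in contrast to 5 of 14 pluripotency genes, which are on other autosomes and mostly short. In 18 genes at least 1 window was in both files. Their 314 distinct windows were listed in 48.7% of cases, close to the 48.6% of all windows of chromosome 18. All but 1 of the single-file windows with other autosomes to compare, 118 or 99.2%, were in the file that most of those used, against 96.4% for chromosome 18 as a whole. The clustered protocadherins (chr18:36930285-37841873), cell surface proteins that give neurons distinct identities, had 48 of 92 windows in file 1 only, 3 in both and 0 in file 0 only, at positions from 0 to 2.93. The desmosomal cadherins (chr18:19960930-20604526), which hold epithelial cells together, had 17 in file 1 only and 4 in both. The file 1 windows of these clusters had mean positions of 1.51 and 1.14.

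Positions of single genes on chromosome 18 varied. Smad2 and Smad4, signal transducers of the TGF-beta pathway, had 3 and 2 windows in file 1 only with file 1 means of 2.12 and 1.93, and Smad7, an inhibitor of the pathway, had 1 at 2.57. The windows of Smad2 ran from 1.16 to 2.60. The receptor genes Pdgfrb and Csf1r, neighbours near 61 Mb, had 3 and 2 windows in file 1 only. The mean position of Csf1r in file 1 was 2.60, and that of Pdgfrb was 1.82. Tcf4, a transcription factor gene of 345 kb, had 15 windows in file 1 only and 1 in both, with a file 1 mean of 1.98. Lower means were found for Apc, a Wnt pathway tumour suppressor gene, with 8 windows in file 1 only at 1.20. Zeb1, a regulator of the epithelial to mesenchymal transition, had 11 windows in file 1 only and a file 1 mean of 1.78. With 1 to 15 windows each and an SD of 0.714 for chromosome 18, these means describe the listed windows and do not order the genes.

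Of the 31 genes, 20 had a window in file 0, and 7 of these had a window in file 0 only. Gata6, a regulator of primitive endoderm, had 1 window in file 0 only, at 0.50, and all 24 single-file windows of other autosomes at its coordinates were in file 0. The imprinted gene Impact had 2 in file 0 only and 1 in both. Ctnna1, which encodes the adhesion protein alpha-catenin, had 2 in file 0 only, 1 in file 1 only and 8 in both. Nfatc1, a calcium-regulated transcription factor gene, had 2 in file 0 only and 1 in file 1 only. The other 3, Rock1, Hdac3 and Mc2r, had 1 window each in file 0 only.

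Windows listed in both files often had the same position in each. On chromosome 18, 56.5% of 1093 shared windows had identical positions, against 60.3% of 10587 over all autosomes and 67.3% on chromosome 4, the highest. The shared windows of chromosome 18 were 1.51 times the number from independent files with its coverage, and that ratio ran from 1.35 on chromosome 14 to 1.79 on chromosome 9. The ratio of chromosome 18 lay inside this range, although its share of windows in both files was the highest.

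Positions were the readout that had no part in choosing Cell18, and they were set against the files at run ends. Neighbouring single-file windows at most 100 kb apart differed in position by 0.852 axis units in Cell18 when they were in the same file and by 0.841 when they were in different files. The log2 ratio of different over same file was -0.02. In the other 9 nuclei it was 0.21 ± 0.12 (SD, n = 9, range 0.03 to 0.37), above 0 in 9 of 9, with an exact sign-flip permutation test p = 0.00391, the smallest possible. A change of file thus went with a mean step 1.15 times larger in those nuclei. Cell18 had the lowest value of the 10. It was also the lowest with neighbours at most 10 kb apart (0.00), at most 1 Mb apart (-0.02) and with grid windows only (-0.08). A single nucleus against 9 allows no test of this difference that could pass a threshold of 0.05, and the run ends that define the groups also entered the choice of Cell18.

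The coordinates assigned to file 1 in Cell18 had little in common with those of the other nuclei. Across 2379 to 2410 autosomal bins of 1 Mb, the share of single-file windows in file 1 had a Pearson's r with each other nucleus from -0.03 to 0.15, with a median of 0.06. These values share Cell18 and are a description.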

How the data were processed

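Profiles were grouped by nucleus from the labels, and controls entered no comparison. Reads were processed with Trim Galore 0.6.4, Bowtie2 2.3.5 and Picard on mm10, per the submitters' processing notes. Each deposited file lists 10 kb windows with chromosome, start, end and a position in another unit, unnamed, per the file headers. The step from reads to positions and the meaning of the file numbers are not stated there. Positions were counted from the low end of the axis, and identity was taken within 1e-06.

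Values were computed in Python 3.11.15 with numpy 2.4.6, pandas 2.3.3 and scipy 1.17.1. Genes came from RefSeq (GRCm38.p6, the coordinates of mm10; 74 of 74 listed symbols matched). Nuclei gave 1 value each to exact two-sided permutation tests. The labels name no separate cultures, and the p-values cover the spread between these nuclei only. The computations were tested on simulated data.

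Members, lists and settings were chosen with earlier results of these data known. Named were chromosome 18, the 3 lowest, highest, most and least covered autosomes, the 10 longest runs, the runs of chromosome 18, and listed genes and clusters. Other autosomes, listed genes outside the 10 runs and chromosome 18, and the longest gene of each run were named after their values were seen. The coordinate comparison was also chosen after seeing the data. Alternatives were other averages, files, denominators, run rules, bin sizes, batches and nuclei left out.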

Additional observations from a re-analysis of the deposited data

Results flagged for a closer look

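No position measure of a nucleus lay beyond Dixon's 95% limit among the 10; run lengths and coverage of chromosome 18, by which Cell18 was chosen, were not examined in this way. Outside the autosomes, file 1 of Cell18 listed 206 windows on 35 unplaced contigs and file 0 listed 0. On the X chromosome of Cell18, 99.5% of 7149 single-file windows were in the file that most autosomes used at the same coordinate, against 64.7% from the file shares. This value was 94.5% to 99.5% over the 10 nuclei. The controls have no file of positions here.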

How the results depend on the processing

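Chromosome 18 coverage was 1.14 without the 3 positions at which it was densest, an alternative chosen after seeing the data, and 1.53 to 1.87 under 7 others. The span of autosome means was 18.75% of the axis with medians and 7.22% to 12.9% under the 6 others. The run N50 was 0.40 Mb with shared windows ending a run, 3.85 Mb with runs of 1 or 2 windows removed and 3.10 Mb in bins of 100 kb. It was unchanged, at 1.95 Mb, with gaps over 1 Mb ending a run. The step at run ends was 0.13 in batch B16F alone and the coordinate excess was 25.6 points there; with 3 nuclei the exact sign-flip p was 0.25 in each case and cannot be lower. Leaving out each nucleus in turn gave steps of 0.19 to 0.23 and coordinate excesses of 32.3 to 35.6 points, with an exact sign-flip p of 0.00781 throughout. The other alternatives for both results kept the direction and p under 0.05. No paired analysis was possible because each nucleus gives 1 value. Windows carry no read counts, Cell18 is 1 nucleus, and gene means rest on few windows.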
